A study of Mus musculus with 66 samples.

Results

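The genes described here encode splicing factors and other RNA-binding proteins that were measured in mouse cerebellum. They were chosen by name alone, as every gene with a probe of its own whose symbol begins with Srsf, Snrp, Hnrnp, Sf3a, Sf3b, Prpf, U2af, Celf or Cpsf, or with Lsm, Rbm, Ddx or Dhx followed by a digit, together with Syncrip. This gave 73 genes, read by 85 probes, of the 4209 genes that could be named on a nylon filter of 8448 cDNA probes. No U2af and no Sf3a gene was among them. No measured value entered the choice, and no filter on signal was applied.

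Cerebellum was taken from 66 C57BL/6 mice of both sexes, and the RNA of each mouse was hybridized to its own filter. Adults were killed at about 6, 16 or 24 months after being fed ad libitum (AL) or held on caloric restriction (CR) from young adulthood. The AL groups held 10, 10 and 9 mice and the CR groups 9, 10 and 8 mice in order of age. A further 5 mice of 17-21 days and 5 of 33-44 days were fed ad libitum. All mice carried the same genetic background, with no transgene or drug in any group. The CR males of the oldest group were all 673 days old, whereas the AL males were 719 to 743 days old, so that diet and age cannot be told apart in those males. Values are Z scores, in which 0 is the mean of all probes on an array and 1 is their SD, and differences are given in these Z units. The number of arrays limits their precision.

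Pre-mRNA splicing removes introns with a machine built from small nuclear RNAs and their proteins. The Sm and Sm-like proteins form rings around these RNAs, the SF3B complex holds the branch point, and PRPF proteins and DEAH-box helicases drive the machine from step to step. SR proteins bind exons and favour their inclusion, hnRNP proteins often oppose them, and CELF and RBM proteins adjust the choice in particular tissues. The CPSF complex recognizes the polyadenylation signal and cuts the 3′ end. Neurons splice an unusually large set of transcripts in their own way, and alternative splicing changes as the cerebellum matures.

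The typical array correlated with the others by 0.968 (median), except for 3 arrays of CR mice (0.695 and 0.701 at 16 months, 0.820 at 24 months), which were left out of the tests. On the first 2 of these arrays the probes for Celf2, Rbm10 and Snrpg, which share a position in the runs of probe numbers with 1 of the Prpf31 probes, read between -2.98 and -2.28. The 63 remaining arrays gave 8 CR mice at 16 months and 7 at 24 months. Granule cell, oligodendrocyte and choroid plexus markers had no gene that could be named on this filter, so the tissue could be checked only against a few others. The Purkinje cell genes Car8 and Calb1 had mean Z scores of 0.841 and -0.0150. Of the Bergmann glia and astrocyte genes, Vim was at 1.00 and Slc1a3 at 0.0348. Above 0 were 2 of 3 microglia and macrophage genes, 4 of 5 vascular and meningeal genes and 1 of 3 blood cell genes. In whole tissue, fewer cells of a type and less RNA per cell cannot be told apart.

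Gene names come from the annotation of the filter, and they were checked against each other wherever a gene had several probes. This was possible for 11 of the 73 genes. Their probes lay 1.097 Z units apart in the median, against 0.738 over the 485 genes of the filter with 2 probes. The first median includes Rbm7, which had 3 probes and entered with the gap from its highest to its lowest. Of these genes, 6 had probes on both sides of 0. The probes for Srsf10, which can act as a splicing repressor, had means of 1.62 and -1.98. Those for Rbm19, a factor of ribosome assembly, had 1.03 and -1.36, and those for the branch point factor Sf3b2 had 1.12 and -0.894. The 3 probes for Rbm7, a part of the nuclear exosome targeting complex, were at 1.07, 0.261 and -0.922. Each pair was also compared across the 63 mice, with permutation p values adjusted over 13 pairs. The probes for Hnrnpa1 rose and fell together (Pearson r = 0.887, permutation p = 1e-05, the smallest the permutations can give, Spearman rho = 0.893, adjusted p = 0.00013 for both, r = 0.867 without the 2 mice farthest from the median). Those for Rbm25 correlated by 0.438 (permutation p = 0.00033, rho = 0.421 with p = 0.00067, adjusted p = 0.00214 and 0.0042, r = 0.446 without 2 mice) and those for Dhx9 by 0.317 (permutation p = 0.0113, rho = 0.389 with p = 0.00179, adjusted p = 0.0366 and 0.00582, r = 0.377 without 2 mice). One pair of Rbm7 probes ran in opposite directions (r = -0.366, permutation p = 0.00371, rho = -0.405 with p = 0.00097, adjusted p = 0.0161 and 0.0042, r = -0.395 without 2 mice). The other 9 pairs did not pass. Each name below therefore stands for the probe or probes as annotated, and levels of different probes are not ranked against each other as amounts of RNA.

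**Figure D1:**
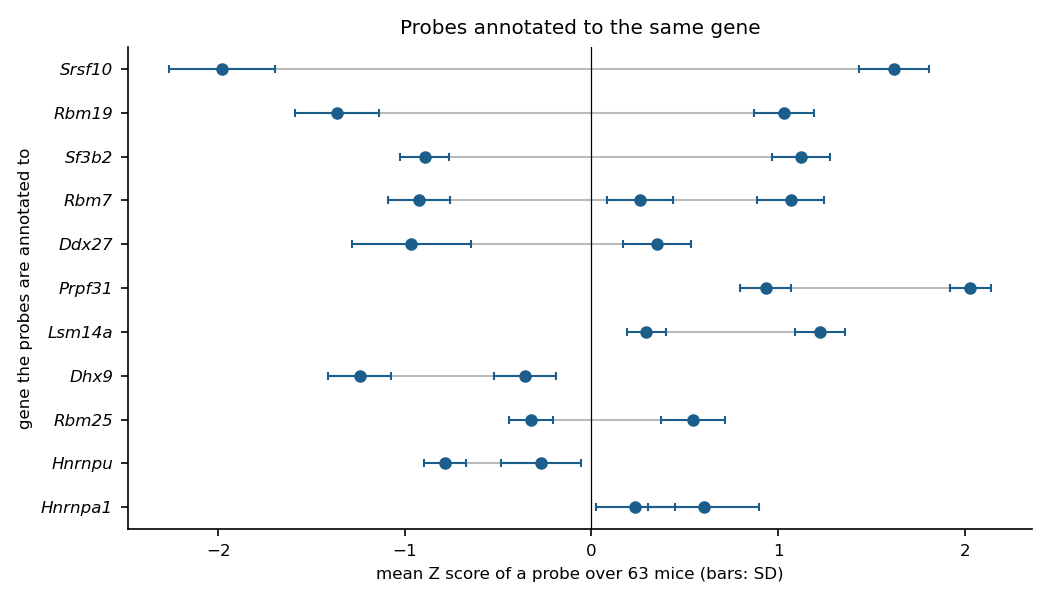
Mean Z score (x axis) of every probe of the 11 genes with several probes (y axis), over the 63 mice, with bars for the SD. Grey lines join the probes of a gene, which span 3.60 Z units for Srsf10 and 0.367 for Hnrnpa1.

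To show where these genes are transcribed from, the 250 bases before the start of transcription are given for 3 of them, as listed by RefSeq for GRCm38.p6. Srsf6 and Snrpe are shown because they had the smallest p between mice of 17-21 days and of 6 months and are read by a probe each, and Lsm5 because its values spread most widely within groups among the Sm-like genes. Srsf6 starts downstream of chr2:162931258-162931507 on the plus strand, Snrpe of chr1:133610281-133610530 on the minus strand, and Lsm5 of chr6:56704700-56704949 on the minus strand. Sequences run 5′ to 3′ towards the gene, and capitals mark matches on either strand to CCGGAAG (the core bound by ETS factors), GGGCGG (the GC box), the CCAAT box, the motif TATAAA of TATA boxes, or TGACGTCA (the cyclic AMP response element).
Srsf6: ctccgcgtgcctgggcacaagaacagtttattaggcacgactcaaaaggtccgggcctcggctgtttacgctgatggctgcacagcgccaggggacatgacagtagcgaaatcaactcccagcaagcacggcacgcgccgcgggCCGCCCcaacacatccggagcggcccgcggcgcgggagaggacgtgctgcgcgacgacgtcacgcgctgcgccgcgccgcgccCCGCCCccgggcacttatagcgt
Snrpe: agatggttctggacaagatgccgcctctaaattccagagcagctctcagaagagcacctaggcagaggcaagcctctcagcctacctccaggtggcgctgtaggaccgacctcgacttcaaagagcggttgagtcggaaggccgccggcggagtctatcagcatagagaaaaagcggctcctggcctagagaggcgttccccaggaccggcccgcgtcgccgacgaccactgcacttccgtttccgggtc
Lsm5: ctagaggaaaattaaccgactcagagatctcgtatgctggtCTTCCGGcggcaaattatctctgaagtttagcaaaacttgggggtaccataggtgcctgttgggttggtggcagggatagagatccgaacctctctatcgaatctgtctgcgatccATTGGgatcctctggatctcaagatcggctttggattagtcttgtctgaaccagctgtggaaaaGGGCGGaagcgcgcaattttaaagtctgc
The Srsf6 stretch held 2 GC boxes and 35 CpG dinucleotides. The Snrpe stretch held none of the motifs and 19 CpG dinucleotides, and that of Lsm5 held 1 ETS core, 1 GC box and 1 CCAAT box with 11 CpG dinucleotides. Windows were listed for 65 of the 73 genes, 89 in all. Their median was 19 CpG dinucleotides and a GC content of 60.8%, against 6 and 52.4% over all 32851 windows of the table. A GC box stood in 56.2% of the windows of these genes and in 32.7% of all windows, a CCAAT box in 49.4% and 33.8%, and an ETS core in 16.9% and 6.91%. TATAAA stood in 8.99% against 12.4%, and the cyclic AMP response element in 5.62% against 1.55%. These are matches of letters, several windows belong to the same gene, and no factor was measured.

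The mean Z scores of these genes ran from percentile 3.74 to percentile 96.7 of the filter. Of the 73 genes, 38 (52.1%) had a mean Z score above 0, against 44.5% of all 4209 named genes, and means ran from -1.73 for Lsm5 to 1.80 for Hnrnph1. Their values were as steady as those of other features, with a median SD within groups of 0.160 against 0.167 over all 7782 features, where a feature is a named gene or a probe without a single gene name. The steadiest was Rbm17 (SD 0.0797) and the least steady the helicase gene Ddx24 (0.406).

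Among the 6 SR protein genes, Srsf6, Srsf5 and Srsf11 had mean Z scores of 1.59, 0.657 and 0.617, and Srsf2, Srsf10 and Srsf1 of -0.0763, -0.180 and -0.524. SR proteins recruit the splicing machine to exons. Of the U snRNP proteins, Snrpe (1.78) and Snrpb (0.587), both members of the Sm ring, were above 0. The other ring members Snrpd2, Snrpd1 and Snrpg were between -0.227 and -0.0392, and Snrpa, the A protein of the U1 particle, was at -1.49. Of the Sm-like genes, Lsm8 (0.845) and Lsm3 (0.726), which belong to the ring around U6 RNA, were above 0, as were Lsm14a (0.759) and Lsm14b (0.438), which act in cytoplasmic mRNA granules. The ring member Lsm5 was at -1.73 and Lsm10, a subunit of the U7 particle that processes histone mRNA, at -1.24.

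The SF3B subunits were Sf3b5 (0.150), Sf3b2 (0.114), Sf3b6 (-0.351) and Sf3b1, which holds the branch point (-1.22). Of the PRPF factors, Prpf31, which joins the U4/U6 and U5 particles, was at 1.48 and Prpf18, a factor of the second step, at 0.873. The 14 hnRNP genes ran from Hnrnph1 (1.80) through Hnrnpc (0.841), Hnrnpl (0.699), Hnrnpk (0.679), Hnrnpa1 (0.417) and Hnrnpdl (0.126) to Hnrnpa0 (-0.0851), Hnrnpul2 (-0.146), Hnrnpr (-0.273), Hnrnpu (-0.527), Hnrnpa2b1 (-0.634), Hnrnpul1 (-0.646) and Hnrnpab (-0.924). Syncrip, a relative of Hnrnpr that travels with mRNA in dendrites, was at 0.0822. The neuronal splicing regulators Celf2 and Celf3 had means of 0.418 and 0.121. All 3 CPSF genes were below 0, with Cpsf4, which binds the polyadenylation signal, at -0.282, Cpsf2 at -0.948 and Cpsf1 at -1.07. When each array was corrected for position in the runs of probe numbers, Cpsf2 moved to 0.0260 and Sf3b2 to -0.112, so that their side of 0 depended on this step.

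The 14 RBM genes held 9 above 0. Rbm39, a coactivator of splicing, was at 0.982 and Rbm6 at 0.813, followed by Rbm17, Rbm12b1, Rbm10, Rbm42, Rbm7, Rbm25 and Rbm26 (0.742 to 0.0638), and by Rbm19, Rbm5, Rbm48, Rbm43 and Rbm4b (-0.166 to -1.11). Among the 10 DDX helicase genes, Ddx24 (0.721), Ddx17 (0.433), Ddx54 (0.388) and the germ cell gene Ddx4 (0.199) were above 0. Ddx47, Ddx27, Ddx20, Ddx42, Ddx18 and Ddx52 were below (-0.227 to -1.18). Of the 6 DHX genes, Dhx37 (1.77), Dhx57 (0.720) and Dhx38 (0.281), which acts in the second step of splicing, were above 0, and Dhx40, Dhx29 and Dhx9 (-0.242 to -0.798) were below.

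Class medians were set side by side over ages and diets. In AL mice of 6, 16 and 24 months the median of the SR proteins averaged 0.288 ± 0.0674 (SD, n = 10), 0.296 ± 0.0738 (n = 10) and 0.266 ± 0.0629 (n = 9). In CR mice it averaged 0.269 ± 0.0517 (SD, n = 9), 0.319 ± 0.0844 (n = 8) and 0.274 ± 0.0478 (n = 7). The median of the hnRNP proteins stayed between -0.0189 and 0.0300 in these 6 groups, with SDs of 0.0529 to 0.0887. That of the RBM proteins lay between 0.104 and 0.178 and that of the DDX helicases between -0.326 and -0.247. Over all 73 genes the median was 0.0573 ± 0.0502, 0.0398 ± 0.0528 and 0.0278 ± 0.0696 (SD) in AL mice of 6, 16 and 24 months and 0.0589 ± 0.0452, 0.10 ± 0.0299 and 0.0250 ± 0.0301 (SD) in CR mice. Over all 73 genes, the CR mice of 16 months lay at 0.07 to 0.16 and those of 24 months at -0.01 to 0.07. On the arrays kept, these groups thus met only at 0.07. The arrays left out read 0.02 and 0.135 at 16 months and 0.0967 at 24 months, and with them the groups overlapped. On the arrays kept, the median over all features lay at -0.08 to 0 at 16 months and -0.11 to -0.02 at 24 months. This pair of groups was singled out after its values were seen. In the single classes the mice of neighbouring ages, and of both diets at an age, overlapped. These medians were not tested.

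**Figure D2:**
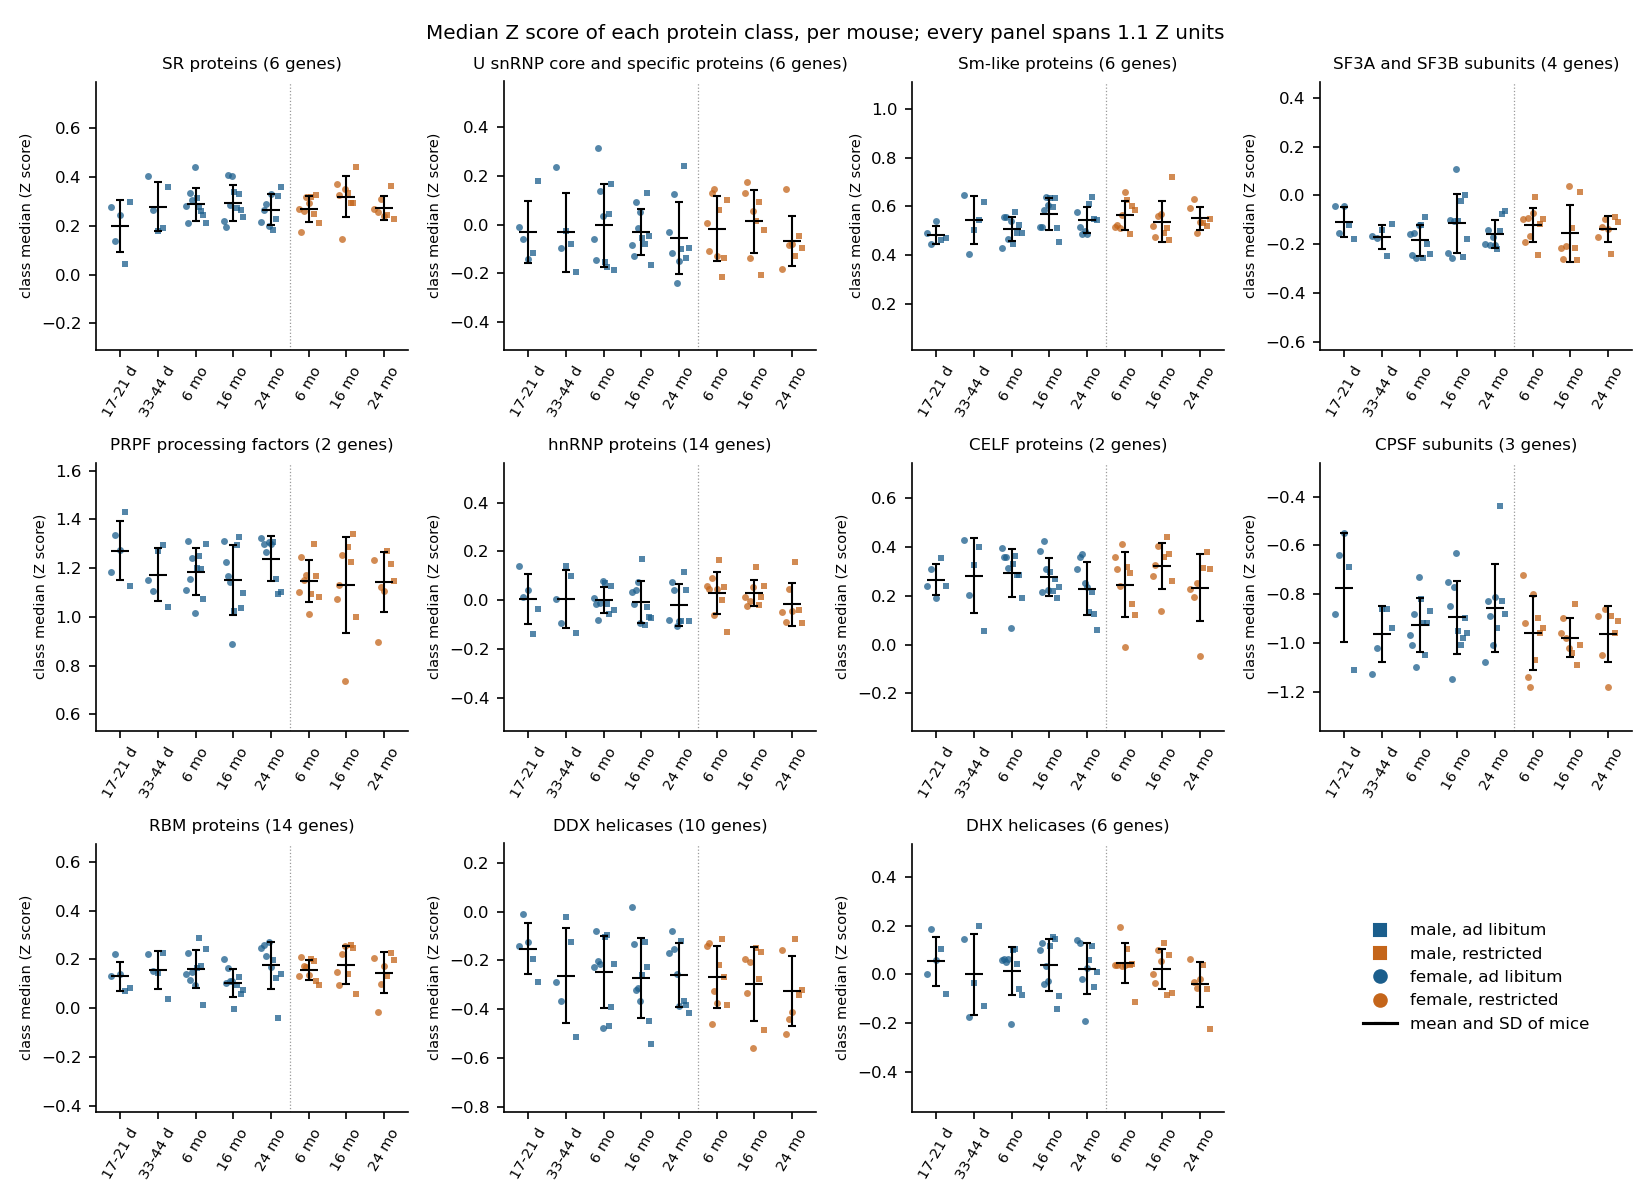
Median Z score of the genes of each class in every mouse (y axis, 1.1 Z units in each panel) against age (x axis), for ad libitum (blue) and restricted (orange) mice, males as squares and females as circles, with the mean and SD. Mice of neighbouring groups overlap in each class, as for the SR proteins, which averaged 0.288 ± 0.0674 at 6 months and 0.266 ± 0.0629 at 24 months in AL mice.

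The first question was whether these genes change with age on a free diet. With limma and Benjamini-Hochberg adjustment over all 7782 features, 0 of the 73 genes were called at an adjusted p under 0.05 between 6 and 16, 16 and 24, or 6 and 24 months, and 0% of all features were. At an unadjusted p under 0.05 there were 2, 2 and 0 of the 73 genes, where 1.34%, 3.92% and 2.49% of all features passed. The median difference of the 73 genes was 0.0160, -0.00900 and -0.00725 Z units, against 0.00100, -0.00225 and -0.000375 over all features.

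In AL mice Lsm5 read -2.64 to -1.53 at 6 months (median -1.81), -2.24 to -0.44 at 16 months (median -1.69) and -2.50 to -1.56 at 24 months (median -1.81). A pair of males of 16 months, at -0.44 and -0.87, stood above all other AL mice of that age, and the groups overlapped. The difference was 0.303 (SE 0.135) from 6 to 16 months and -0.311 (SE 0.139) from 16 to 24 months. Cpsf1, the large subunit of the polyadenylation complex, read -1.56 to -0.73 at 6 months (median -1.14) and -1.15 to -0.63 at 16 months (median -0.970), a difference of 0.154 (SE 0.0740). Lsm10 read -1.32 to -0.89 at 16 months and -1.64 to -1.05 at 24 months, a difference of -0.168 (SE 0.0735). The next in order were Rbm42 from 6 to 16 months (-0.0960, SE 0.0552) and Celf2 from 16 to 24 months (-0.150, SE 0.0774). None of these passed the adjustment, with the smallest adjusted p at 1 and 0.99957 in these comparisons. From 6 to 24 months the nearest were Rbm42 (-0.111, SE 0.0569), Cpsf4 (-0.176, SE 0.0958) and Celf2 (-0.121, SE 0.0774). The 95% interval of a gene was its difference ± 0.147 in the median, and 56 of the 73 intervals lay within ± 0.25 Z units.

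By class, the Sm-like genes were all higher at 16 than at 6 months in AL mice (6 of 6, median 0.0515), as were the SF3B subunits (4 of 4, median 0.0528), without testing of the class. By 24 months the medians of both classes differed from 6 months by 0.0109 and 0.0453. The hnRNP genes were split 7 against 7 at 16 months and 6 against 8 at 24 months, and the RBM genes 6 against 8 in both. The share of all 73 genes that were higher was 44 at 16 months and 34 at 24 months.

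**Figure D3:**
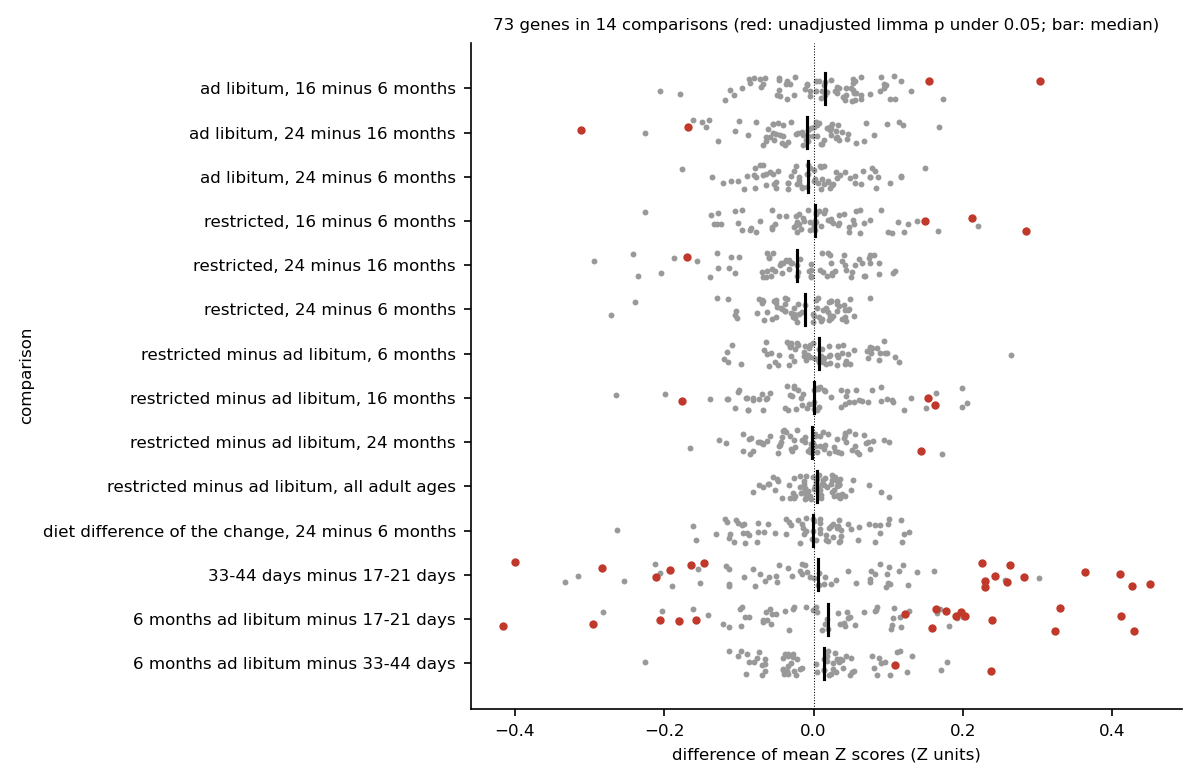
Differences of the 73 genes (x axis, Z units) in each of 14 comparisons (y axis); red points had an unadjusted limma p under 0.05 and black bars mark the median. Red points number 0 to 3 in the comparisons among adult mice and 17 in each of those between mice of 17-21 days and older mice, and 0 genes were called in any comparison.

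The second question was whether the genes change with age under caloric restriction. Again 0 of the 73 were called, and 0% of all features. Between 6 and 16 months 3 of the 73 genes had an unadjusted p under 0.05 (2.13% of all features), between 16 and 24 months 1 (2.51%) and between 6 and 24 months 0 (1.12%). Celf3, one of the CELF splicing regulators of neurons, read -0.22 to 0.35 at 6 months (median 0.0600), 0.07 to 0.50 at 16 months (median 0.255) and -0.20 to 0.36 at 24 months (median 0.0900). The mice of 16 months were shifted upwards but overlapped those of either other age. The difference was 0.212 (SE 0.0753) from 6 to 16 months and -0.169 (SE 0.0805) from 16 to 24 months, with adjusted p values of 0.999587 and 0.998846 in limma. The helicase gene Ddx54 differed by 0.150 (SE 0.0602) from 6 to 16 months and by -0.128 (SE 0.0643) from 16 to 24 months. Ddx42, a helicase found with the U2 particle, read -1.09 to -0.60 at 6 months and -0.85 to -0.44 at 16 months, a difference of 0.284 (SE 0.132). With the 2 low arrays of 16 months and that of 24 months put back, 7 of the 73 genes instead of 3 passed at an unadjusted p from 6 to 16 months (9.59%, where 8.74% of all features did). From 16 to 24 months 8 instead of 1 passed (11%, where 9.82% of all features did), with 0 called in both.

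From 6 to 24 months under restriction the nearest genes were Lsm5 (-0.271, SE 0.154), Hnrnpu (-0.105, SE 0.0683) and Rbm19 (-0.102, SE 0.0699), none of which had an unadjusted p under 0.05. Of the 14 hnRNP genes, 10 were lower and 4 higher at 24 months, with a median of -0.0386 and a range from -0.239 to 0.0456. The class was not tested. Of all 73 genes, 39 were lower and the median difference was -0.0108, against 0.00125 over all features. Syncrip read 0 to 0.28 at 16 months (median 0.200) and -0.20 to 0.29 at 24 months (median -0.0500), a difference of -0.187 (SE 0.103).

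The third question was whether diet itself shifts these genes. Over all adult ages 0 of the 73 passed the adjusted threshold (0% of all features), and 0 had an unadjusted p under 0.05 (1.64% of all features). This was the most precise comparison, with a median 95% interval of ± 0.0889, and 72 of the 73 intervals lay within ± 0.25 Z units. The differences ran from -0.0809 to 0.101. The nearest to the threshold were Hnrnpdl (0.0745, SE 0.0378), Rbm5, an RNA-binding regulator of apoptosis genes (0.0898, SE 0.0486), and Srsf10 (-0.0729, SE 0.0488). Of the 14 RBM genes, 11 were higher under restriction, with a median of 0.0241, and of all 73 genes 42 were. At 6, 16 and 24 months alone, 8, 10 and 7 of the 14 RBM genes were higher. The class was not tested. Both probes of Srsf10 were read singly as well, and the dimmer probe differed by -0.154 (SE 0.0760) whereas the brighter differed by 0.00783 (SE 0.0523).

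At 6 months 0 of the 73 genes had an unadjusted p under 0.05 (0.655% of all features), at 16 months 3 (2.13%) and at 24 months 1 (2.25%), with 0 called at any age. The nearest at 6 months were Lsm5 (0.265, SE 0.139), Celf3 (-0.115, SE 0.0713) and Snrpa (-0.120, SE 0.0834). At 16 months, Celf3 read -0.18 to 0.31 in AL mice and 0.07 to 0.50 in CR mice, a difference of 0.163 (SE 0.0733). Hnrnpr was lower under restriction by -0.176 (SE 0.0818), and Rbm26, which takes part in nuclear RNA decay, was higher by 0.154 (SE 0.0721). At 24 months, Hnrnpdl read -0.09 to 0.27 in AL mice (median 0.0700) and 0.15 to 0.28 in CR mice (median 0.180), a difference of 0.145 (SE 0.0691). Its CR mice sat at the upper end of the AL range. Rbm5 differed by 0.172 (SE 0.0889) and Ddx27 by -0.127 (SE 0.101) at that age. In females alone, where both diets were of like age at 24 months, 5 of the 73 genes (6.85%) had an unadjusted p under 0.05 at 24 months, where 5.18% of all features did, and 0 were called, the nearest being the helicase gene Dhx57 (-0.315, SE 0.105, adjusted p = 0.736 in limma). The 5 genes were Dhx57, Celf3, Rbm26, Prpf18 and Rbm25, and Hnrnpdl was not among them.

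Whether restriction altered the change from 6 to 24 months was tested as the difference of the AL and CR changes. Here 0 of the 73 genes passed the adjusted threshold (0% of all features) and 0 the unadjusted one (0.9% of all features). The smallest p belonged to Rbm19, which differed by -0.102 with age under restriction and by 0.0559 on the free diet (difference -0.158, SE 0.0944). Hnrnpa0 (-0.161, SE 0.104) and Rbm42 (0.118, SE 0.0848) came next. The median 95% interval was ± 0.219 Z units, and 27 of the 73 intervals lay within ± 0.25, so that differences of that size could not be seen or bounded for most genes.

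**Figure D4:**
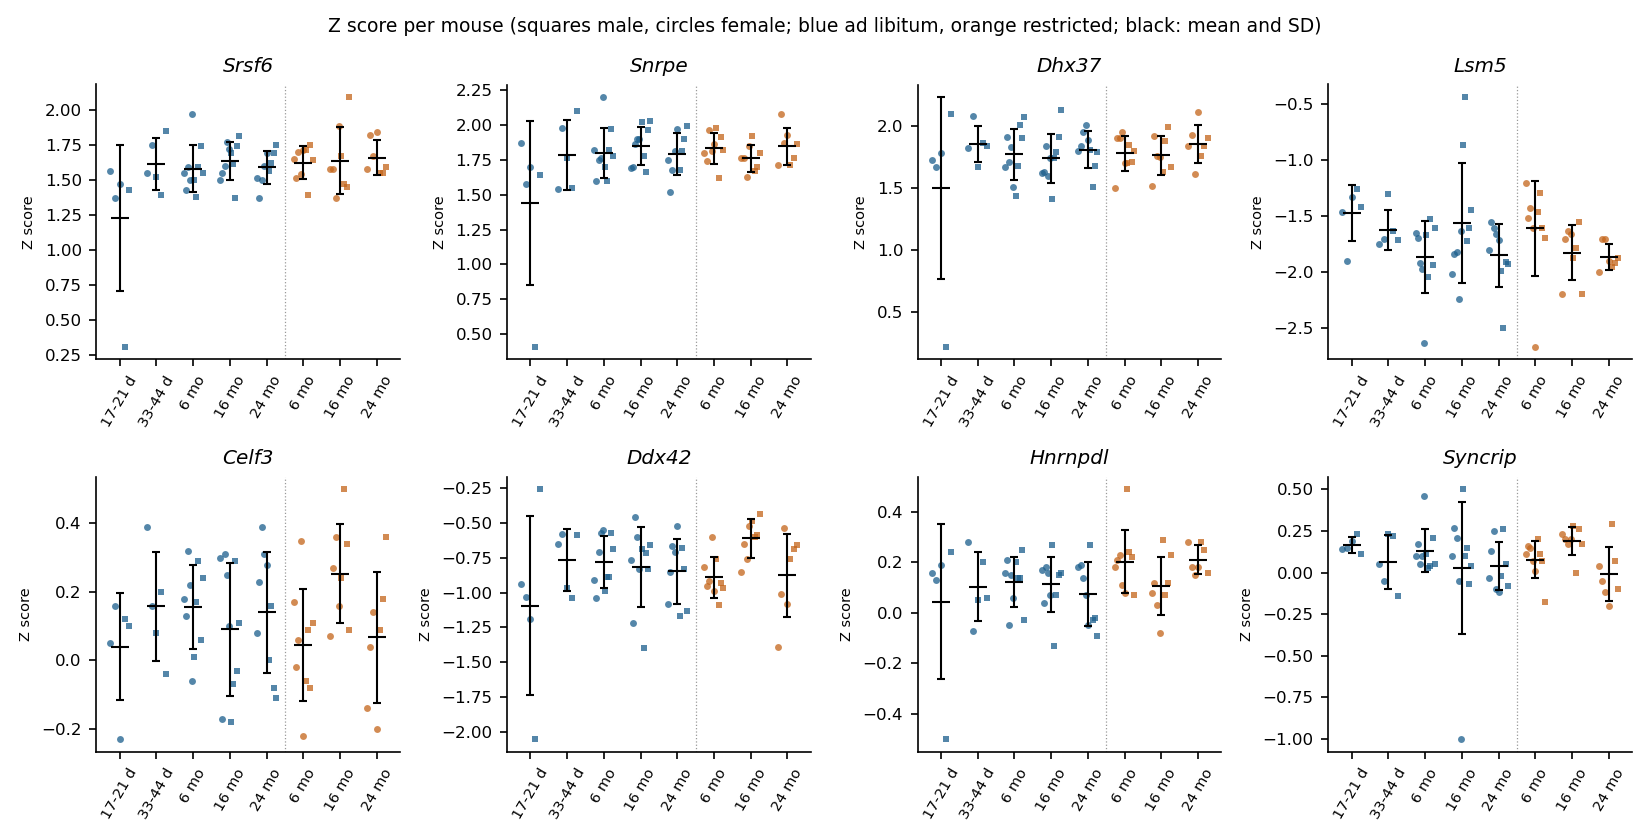
Z score (y axis) of 8 genes in every mouse against age (x axis), for ad libitum (blue) and restricted (orange) mice, males as squares and females as circles, with the mean and SD. For Srsf6, Snrpe and Dhx37 the lowest point is the same male of 17-21 days, at 0.31, 0.41 and 0.22.

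The last comparisons addressed maturation. Between 17-21 days and 33-44 days 0 of the 73 genes were called, where 24 features (0.308%) were, and 17 of the 73 (23.3%) had an unadjusted p under 0.05, where 13.4% of all features did. Of these, 11 were higher (6.82% of all features were) and 6 lower (6.53%) at 33-44 days. Between 17-21 days and 6 months on the free diet 0 genes were called (0.411% of all features), and again 17 had an unadjusted p under 0.05 (10.7% of all features), 12 higher (5.69%) and 5 lower (5%) at 6 months. The 2 comparisons share the mice of 17-21 days. From 33-44 days to 6 months, 2 of the 73 genes (1.72% of all features) had an unadjusted p under 0.05, Rbm17 (0.109, SE 0.0502) and Cpsf4 (0.238, SE 0.115), followed by Hnrnpr (0.178, SE 0.0958).

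Srsf6 read 1.56, 1.37 and 1.47 in the females of 17-21 days and 0.31 and 1.43 in the males, and 1.55 and 1.75 in the females of 33-44 days and 1.52, 1.39 and 1.85 in the males. Apart from the male at 0.31 the 2 ages overlapped. At 6 months it read 1.38 to 1.97 in AL mice (median 1.55). With limma, the difference from 17-21 days was 0.450 (SE 0.125, adjusted p = 0.106) at 33-44 days and 0.412 (SE 0.107, adjusted p = 0.0612) at 6 months.

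Snrpe read 1.87, 1.58 and 1.70 in the females of 17-21 days and 0.41 and 1.64 in the males. At 33-44 days it read 1.54 and 1.98 in the females and 1.76, 1.55 and 2.10 in the males, and 1.60 to 2.20 in AL mice of 6 months (median 1.77). Here too the groups overlapped once the same male was set aside. The difference from 17-21 days was 0.411 (SE 0.127, adjusted p = 0.140) at 33-44 days and 0.429 (SE 0.109, adjusted p = 0.0526) at 6 months. Both genes were called at 6 months with the array set as a block (Snrpe 0.396, adjusted p = 0.0327, and Srsf6 0.365, adjusted p = 0.0399). So close to the threshold, single mice decided the call, and the share of all features called in these settings was not taken. Snrpe passed at 6 months (adjusted p = 0.0300 to 0.04997) without the second AL female of 6 months, the fifth AL female of 24 months, the fifth CR male or female of 16 months, either female of 33-44 days, or the second or the third male of 33-44 days. Srsf6 passed at 6 months without that female of 6 months or either of those mice of 16 months (adjusted p = 0.0437, 0.0389 and 0.0480), and at 33-44 days without the second male of that age (0.0444).

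Dhx37, a helicase of ribosome assembly, read 0.22 in the first male of 17-21 days and 1.67 to 2.10 in the other 4 mice of that age, and Ddx42 read -2.05 in that male and -1.19 to -0.26 in the others. The first male thus held the lowest value of both genes. The array of this male also had the lowest correlation with the rest of those kept, 0.921. Without it, 5 of the 73 genes (6.85%) had an unadjusted p under 0.05 from 17-21 to 33-44 days, where 6.00% of all features did, and 2 (2.74%) from 17-21 days to 6 months, where 4.14% did, with 0 called in both. Srsf6 then differed by 0.170 (SE 0.118) and 0.132 (SE 0.106), Snrpe by 0.103 (SE 0.115) and 0.122 (SE 0.103), and Dhx37 by -0.0433 (SE 0.122) and -0.140 (SE 0.109) at 33-44 days and 6 months. Without the other male of 17-21 days, which left the first male alone to stand for the males of that age, 12 and 11 genes were called (16.4% and 15.1%), where 8.07% and 7.35% of all features were. The number of genes that differed from mice of 17-21 days thus rested on the first male.

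By class, 4 of the 6 SR protein genes (Srsf5, Srsf6, Srsf10 and Srsf11) had an unadjusted p under 0.05 and were higher in both older groups with all mice. Of all features, 6.82% and 5.69% were higher at this threshold at 33-44 days and 6 months. Read singly with all mice, the brighter and the dimmer probe of Srsf10 differed by 0.225 (SE 0.121) and 0.300 (SE 0.177) at 33-44 days. At 6 months they differed by 0.114 (SE 0.104) and 0.280 (SE 0.152). Neither probe had an unadjusted p under 0.05 at either age. Srsf5 read 0.57, 0.78 and 0.47 in the females of 17-21 days and 0.20 and 0.56 in the males, and 0.66 to 0.82 at 33-44 days. Without the first male it differed by 0.153 (SE 0.0778) at 33-44 days and by 0.0877 (SE 0.0696) at 6 months. Srsf10 alone of the 4 kept an unadjusted p under 0.05 at 33-44 days (0.285, SE 0.130), and at 6 months none did. Prpf31 differed by 0.178 (SE 0.0710) at 33-44 days and by 0.180 (SE 0.0635) at 6 months without that male. Cpsf4 read -0.27, -0.39 and -0.05 in the females of 17-21 days and 0.17 and 0.16 in the males, and -0.58 to -0.31 at 33-44 days. Without the first male it differed by -0.397 (SE 0.154). All of these had adjusted limma p values of 0.780 or more. Both probes of Sf3b2, which lie on either side of 0, were lower at 6 months than at 17-21 days, by -0.206 (SE 0.0886) and -0.204 (SE 0.0703) with all mice. Without the first male they differed by -0.126 (SE 0.104) and -0.109 (SE 0.0801), neither with an unadjusted p under 0.05. Of the 2 Purkinje cell markers, 1 was higher and 1 lower at an unadjusted p under 0.05 in both older groups, and their part in these differences was not tested.

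**Figure D5:**
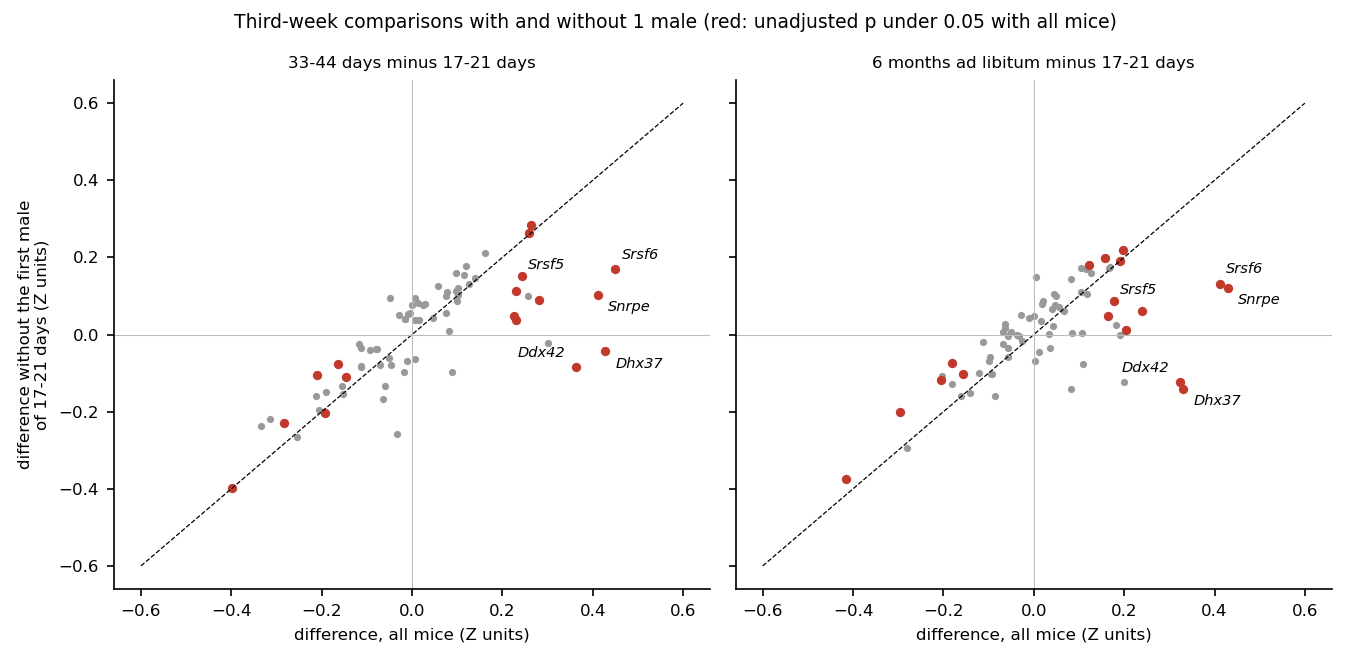
Differences of the 73 genes from mice of 17-21 days (Z units) with all mice (x axis) and without the first male of that age (y axis), at 33-44 days (left) and at 6 months (right); the dashed line marks equal values, and red points had an unadjusted p under 0.05 with all mice. Srsf6 and Snrpe fall from 0.450 and 0.411 to 0.170 and 0.103 on the left, and Dhx37 from 0.427 to -0.0433.

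Other genes of RNA processing were tested in the same fit. Of 66 genes on the filter from 4 lists of related proteins (26 splicing regulators such as Ptbp2, Rbfox2 and Mbnl1, 15 other spliceosome proteins, 12 factors of 3′ end formation and export, and 13 cytoplasmic RNA-binding proteins), 0 were called in any of the 14 comparisons. At an unadjusted p under 0.05 there were 0 to 3 in each comparison among adult mice, where 0.655% to 3.92% of all features passed. Between 17-21 days and 33-44 days there were 8 of the 66 (13.4% of all features), 2 higher (6.82%) and 6 lower (6.53%) in the older mice. Between 17-21 days and 6 months there were 9 (10.7% of all features), 1 higher (5.69%) and 8 lower (5%). Of the 26 splicing regulators, 5 and 6 were lower at this threshold at 33-44 days and 6 months. Of all features, 6.53% and 5% were. Most of the 73 genes that passed there with all mice were higher. Without the first male of 17-21 days, 2 of the 73 passed as higher and 3 as lower at 33-44 days. At 6 months 2 passed as higher and 0 as lower. The 66 genes were not examined without that male, so the directions of the 2 sets cannot be compared. The regulators Ptbp2, Rbfox2 and Mbnl1, which shape neuronal splicing, had mean Z scores of 1.03, 1.18 and 0.546, with 1.11, 1.13 and 0.498 at 17-21 days and 1.03, 1.15 and 0.567 at 6 months.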

How the data were processed

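For each mouse, radioactive cDNA made from cerebellar RNA was hybridized to 1 nylon filter of cDNA clones. The authors quantified the spots from phosphor images and deposited scores (Z scores, centred at 0 with an SD of 1 on each array). A prior log transformation and a background step are each not given in the sources used here, so differences are in Z units and cannot be turned into folds. The scaling hides any shift that all probes share. Groups came from the sex, age and diet in the labels, which made 16 groups of 2 to 5 mice, each array being a different mouse.

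A single symbol was annotated for 4875 of the 8448 probes, several for 224 and none for 3349. Single-symbol probes of a gene were averaged, giving 7782 features. All 73 symbols were found in a RefSeq gene table. Arrays whose median correlation with the others was under 0.9 were left out (3 of 66). The other 63 arrays entered limma 3.58.1 (R 4.3.3), with a mean for every group and 47 residual degrees of freedom. The sexes were weighted equally in 14 comparisons, and p values were two-sided and adjusted over all features. Group means in the text weight mice equally where an SD is given. Alternatives were the inclusion of all arrays, array weights, quantile normalization, correction for probe position, array set (5 runs of array numbers) as a block, a filter on mean Z score above 0, single probes, only the groups compared, females alone, the study's criteria (a Z-ratio of 1.5, a mean above 0 and an unadjusted p under 0.05), and leaving out each mouse. The paper also put the remaining genes through an ANOVA of ages, genders and diets at a p under 0.05. That step was not run, and the p of the study's criteria was here that of limma. The use of the brightest probe of a gene was chosen after seeing the data.

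The genes, classes and lists were chosen with earlier results of these data known. Genes were named by rule: in each class those with the 2 highest and the lowest mean Z score, and in each comparison the called genes or, with none called, the 3 with the smallest p. The others are named to complete their class or because 1 mouse decided their value, and were chosen after their values were seen. The model was tested on simulated data. Promoter stretches came from RefSeq (GRCm38.p6).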

Additional observations from a re-analysis of the deposited data

Results flagged for a closer look

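The genes with the smallest p in each comparison were tested, in the groups compared, for a mouse that stands apart from the rest of its group. Because the genes were chosen by p from these same values, the usual chance rate of about 1 in 20 cannot be set against the count. In 11 of 82 groups of values tested, a mouse stood apart. Srsf6 (0.31, the other 4 mice 1.37 to 1.56) and Snrpe (0.41, the others 1.58 to 1.87) did so in the first male of 17-21 days. Lsm5 did so in 3 mice, a female of 6 months ad libitum (-2.64, the others -2.05 to -1.53), a male of 24 months ad libitum (-2.50, the others -1.99 to -1.56) and a female of 6 months on restriction (-2.67, the others -1.70 to -1.21). In restricted mice, Syncrip was at 0 in a male of 16 months (the others 0.17 to 0.28), Rbm19 at 0.0650 in a female of 24 months (the others -0.295 to -0.180), Rbm42 at 0.70 in a male of 24 months (the others 0.42 to 0.53) and Hnrnpdl at 0.49 in a male of 6 months (the others 0.07 to 0.24). In mice fed ad libitum, Rbm26 was at -0.35 in a male of 16 months (the others -0.09 to 0.12) and Rbm5 at -0.06 in a female of 24 months (the others -0.43 to -0.26).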

How the results depend on the processing

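In the 11 comparisons among adult mice and in that between 33-44 days and 6 months, 0 of the 73 genes were called under every alternative that used the adjusted p, and leaving out each mouse in turn gave 0 to 0. The filter on mean Z score above 0 left 38 of the 73 genes to test, and single probes were tested as 85 probes. The study's criteria, which use the unadjusted p, gave 2 genes from 6 to 16 months on restriction (0.45% of all features), 1 from 16 to 24 months on restriction (0.424%), 2 for diet at 16 months (0.668%), 1 for diet at 24 months (0.308%) and 5 both at 33-44 days (4.11%) and at 6 months (4.09%) against 17-21 days. From 17-21 to 33-44 days, position correction gave 1 gene, Srsf6, as did the filter on mean Z score above 0, under which the median of the genes left was 0.0621 in place of 0.00583, and leaving out each mouse gave 0 to 12. From 17-21 days to 6 months, position correction gave 1, the block of array sets 2, the filter 2 and the brightest probe 1, and leaving out each mouse gave 0 to 11. Apart from the study's criteria and the loss of the second male of 17-21 days, these were Srsf6 or Snrpe in every setting. In those settings the share of all features called was not taken. In the main fit it was 0.308% at 33-44 days and 0.411% at 6 months. With the brightest probe, Srsf10 reversed for diet over all ages (0.00783). The cause was not tested. No paired analysis was possible because the labels give no replicate numbers, and those used here only follow the order of the samples. The array sets, which hold mice of most groups, stood in as the block above. Spot quality and signal over background were not analysed here, and the number of arrays sets the precision.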
